A study of Homo sapiens with 6 samples.

Results

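The HOX cluster genes encode the homeodomain transcription factors that set position along the body axis. All 39 symbols made of HOX, a cluster letter from A to D and a number were taken, out of 25369 genes counted by RNA-Seq. The HOXA cluster on chromosome 7 held 11 of them, the HOXB cluster on chromosome 17 held 10, the HOXC cluster on chromosome 12 held 9 and the HOXD cluster on chromosome 2 held 9. The cells were Caki2, an established human clear cell renal cell carcinoma (ccRCC) line that makes no PBRM1 protein. PBRM1 is a subunit of PBAF, a chromatin remodeling complex of the SWI/SNF family, and is often mutated in ccRCC. Caki2+Vector carried an empty doxycycline-inducible lentiviral vector, and Caki2+PBRM1 carried that vector with full length PBRM1, so both groups were infected, drug-selected lines and both received doxycycline at 2 μg/ml. Each group had 3 samples, lettered A to C, and the question was which transcripts changed when PBRM1 was re-expressed. Whether the lines were clones or pools was not given in the sources used here. Since the groups were different lines, PBRM1 and any other difference between the lines cannot be told apart.

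Within a cluster, HOX genes lie in a row on the same strand, and genes with the same number in different clusters are paralogs that arose by duplication of an ancestral cluster. Low numbers are used in anterior parts of the embryo and high numbers in posterior parts, and adult cells keep a HOX pattern that reflects where they came from. Polycomb complexes hold unused stretches of a cluster silent, and methyltransferases of the MLL/COMPASS family maintain the stretches in use. In the embryonic kidney, the paralogs of group 11 are needed for the ureteric bud to grow out.

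The files held 7312955 to 10835355 reads on genes per sample, and all values given here are normalized counts, which are reads divided by a size factor for each sample. PBRM1 was at 195.0, 182.3 and 182.2 in Caki2+Vector A, B and C and at 2431.7, 2520.7 and 2682.4 in Caki2+PBRM1 A, B and C, so the labels and the construct matched in all 6 samples. Caki2+Vector A stood apart from its own group, with a chi-square per degree of freedom of 3.09 and 2.84 against the other two, where Caki2+Vector B against C gave 1.34 and the Caki2+PBRM1 pairs gave 1.19 to 1.22. Apart from Caki2+Vector A, samples of the same group thus differed by little more than counting error. The 17 renal and ccRCC markers summed to 35976 to 37044 in the controls and 37610 to 38476 with PBRM1, and 13 of them passed the filter on low values. CA9, VCAM1, LRP2 and AQP1 did not pass it and were low (at most 15.2), and EPCAM and CUBN passed it at no more than 19.6. Of 6 fibroblast markers 3 passed the filter, with sums of 104 to 111 in the controls and 102 to 130 with PBRM1, mostly COL1A1. None of the 5 endothelial and 6 blood markers passed it. The endothelial sums were 0.947 to 5.67 in the controls and 3.36 to 6.22 with PBRM1, with CDH5 at 0, and the blood sums 5.67 to 10.4 and 1.08 to 4.44, with CD3E, HBB and HBA1 at 0. The renal and blood sums did not overlap between groups, and their part in the results below was not tested. Taken singly, 41.7% of all genes tested had groups without overlap. The renal list held members of both directions. Over the 13 that passed the filter, log2 fold changes in limma ran from -0.34 for KRT18 to 1.12 for CDH6, with VIM at 0.18. The mean of CDH6 went from 1163 in Caki2+Vector to 2536 in Caki2+PBRM1. Since these were bulk samples, fewer cells with a transcript and less of it per cell cannot be told apart.

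Of the 39 HOX genes, 37 had at least 1 read and 28 reached a normalized count of 10 in at least 3 samples, the filter for testing. No read fell on HOXB1, an anterior gene of the hindbrain, or on HOXC12 in any sample. With 55303036 reads on genes in all, a count of 0 allows up to 3 reads, a limit that covers counting error only. A further 9 genes were read but did not reach the filter, with values from 0 to 18.4, namely HOXA11, HOXB8, HOXC5, HOXC8, HOXC11, HOXD1, HOXD3, HOXD12 and HOXD13. The tested genes were 10 of HOXA, 8 of HOXB, 5 of HOXC and 5 of HOXD. HOX transcripts together took 17894 of those reads.

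To compare levels between genes, normalized counts were divided by the length in kb of each gene's canonical transcript in the GENCODE annotation, so the levels below are per kb. These lengths include exonic bases shared with other genes on the same strand, 32.1% for HOXA4 and 13.2% for HOXA3, but 0% for HOXB7 and HOXA5. Bases shared with exons on the other strand were 74.8% for HOXA7, 60.1% for HOXD1, 27.2% for HOXA11 and 20.8% for HOXA3, but 0% for HOXB7 and HOXA5. Neither the strand setting nor how reads from shared bases were counted was given. The order between genes is therefore approximate, and genes with many shared bases may be undercounted. HOXB7 had the highest mean level over the 6 samples at 220 per kb, followed by HOXA3 (188), HOXA4 (163), HOXB2 (153), HOXA5 (130) and HOXC10 (106). HOXD9 came next at 53.6, then HOXA10 at 46.0 and HOXB6 at 36.5, and the lowest tested gene was HOXD10 at 6.20. The leading genes of HOXA lay at paralog groups 3, 4 and 5, and those of HOXC and HOXD at groups 10 and 9. In Caki2+Vector, HOXA3 (195 ± 20.7 per kb, SD, n = 3) and HOXA4 (191 ± 2.85) lay within their spread of each other, as did HOXA5 (147 ± 16.1) and HOXB2 (137 ± 10.0). In Caki2+PBRM1, HOXB2 (170 ± 3.99 per kb) was above HOXA4 (136 ± 7.59). The highest HOXD genes, HOXD9 and HOXD8, sat at 53.0 to 54.3 and 29.7 to 30.7 per kb in the means of the groups.

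**Figure D1:**
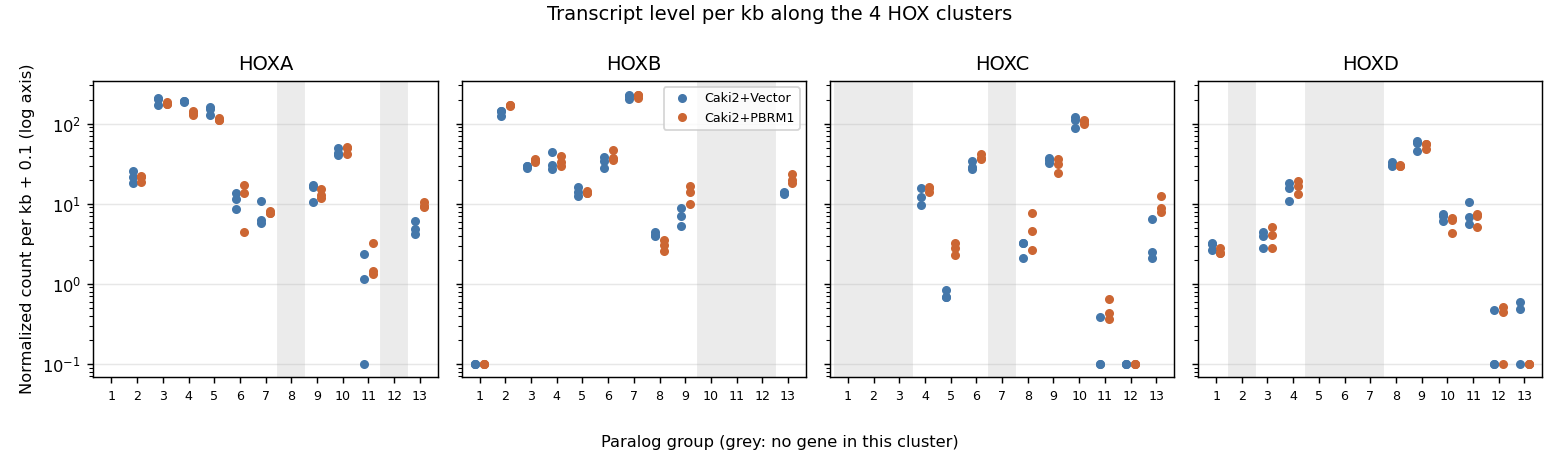
Level of the HOX genes plotted in each sample, as normalized count per kb of transcript plus 0.1 on a log axis, against paralog group, with a panel per cluster, blue points for Caki2+Vector, orange points for Caki2+PBRM1 and grey bands where a cluster has no gene. The points of the groups lie close together for most genes, HOXB7 and HOXA3 sit highest, and HOXB1 and HOXC12 sit at the bottom because no read fell on them.

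Re-expression of PBRM1 came with changes in 7 of the 28 tested HOX genes, 5 of them upregulated and 2 downregulated (limma on log2(normalized count + 1), adjusted p under 0.05 over all genes tested). That is 25.0% of the tested HOX genes, and among all 13303 genes tested 29.2% passed the same threshold, 16.2% upregulated and 13.0% downregulated, so the share of HOX genes was near the background. The changed genes were HOXA4 and HOXA5, which fell, and HOXA13, HOXB2, HOXB9, HOXB13 and HOXC13, which rose. Among them HOXC13 passed the filter through the Caki2+PBRM1 samples. The median log2 fold change over the 28 genes was 0.02 beside 0.00 over all genes tested, and 16 of the 28 were positive. No HOXD gene passed the threshold, and none of the 5 tested there reached an unadjusted p of 0.05 with limma, nor did edgeR or DESeq2 call any. The edgeR test on recovered reads called the same 7 HOX genes, beside 30.3% of all genes (16.5% higher, 13.8% lower), and DESeq2 called 6 of them, beside 19.2% (11.2% higher, 7.95% lower).

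**Figure D2:**
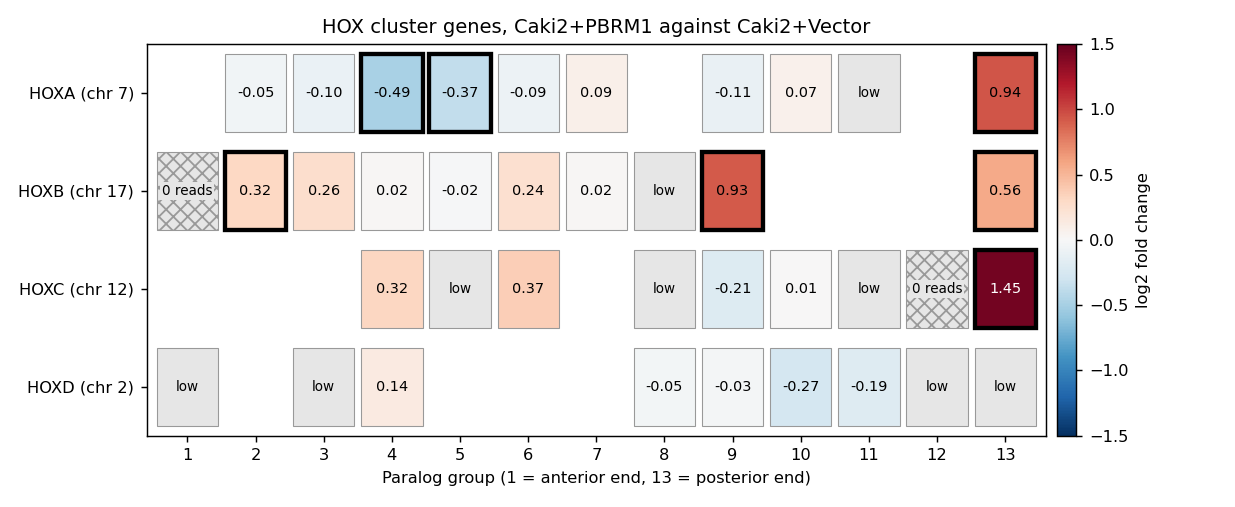
Log2 fold change of the HOX genes plotted, Caki2+PBRM1 over Caki2+Vector, by cluster (rows) and paralog group (columns), in blue where lower and red where higher, with thick frames for genes with an adjusted p under 0.05. Blank positions have no gene or are not shown, grey boxes marked low are the 9 genes under the filter, hatched boxes the 2 genes without a read, and the framed boxes are HOXA4 and HOXA5 in blue and 5 others in red, of which 3 are in the last column.

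HOXA4 is a paralog group 4 gene at chr7:27168126-27170399 on the minus strand (GRCh37). Its normalized counts were 325.7, 316.5 and 323.6 in Caki2+Vector A, B and C and 226.4, 242.7 and 217.4 in Caki2+PBRM1 A, B and C. All 3 Caki2+PBRM1 samples were below all 3 controls, and the gap was wider than the spread within either group. The mean went from 322 ± 4.81 to 229 ± 12.8 (SD, n = 3 each), a log2 fold change of -0.49 with an SE of 0.077 and an adjusted p of 1.13e-05 in limma. The annotated span of HOXA3 covers that of HOXA4, and 32.1% of the bases in HOXA4's canonical exons also lie in exons of other genes on the same strand and 15.8% in exons on the other strand. How reads from these bases were assigned was not given in the sources used here, so HOXA4 and its neighbors cannot be told apart there. HOXA3 itself went from 590 ± 62.7 to 547 ± 17.2 and was not called (log2 fold change -0.10, adjusted p = 0.268 in limma), but without Caki2+Vector A its log2 fold change was -0.19 and it was called (adjusted p = 0.00652 in limma).

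HOXA5, a regulator of lung and breast epithelium, lies 10.3 kb from HOXA4 at chr7:27180671-27183300. It was at 267.9, 253.2 and 215.7 in Caki2+Vector and at 184.1, 196.4 and 188.0 in Caki2+PBRM1. The groups did not overlap, although Caki2+Vector C was nearer to the Caki2+PBRM1 samples than the other controls were. The mean went from 246 ± 26.9 to 189.5 ± 6.29, with a log2 fold change of -0.37, an SE of 0.090 and an adjusted p of 0.00234 in limma. None of its canonical exonic bases is shared with another gene in the GENCODE annotation, although the annotated span of HOXA3 covers HOXA5 as well.

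HOXA13, at the posterior end of the same cluster (chr7:27233122-27239710, 49.8 kb from HOXA5), is the gene of limb, hindgut and urogenital patterning whose mutation causes hand-foot-genital syndrome. Its counts were 30.3, 23.6 and 20.4 in Caki2+Vector and 45.5, 46.2 and 52.0 in Caki2+PBRM1. Every Caki2+PBRM1 sample lay above every control. The mean rose from 24.8 ± 5.06 to 47.9 ± 3.59, with a log2 fold change of 0.94, an SE of 0.198 and an adjusted p of 5.15e-04 in limma. HOXA11, 8.3 kb away, had low counts of 2.8, 0 and 6.0 in Caki2+Vector and 3.2, 3.6 and 8.4 in Caki2+PBRM1. Of its canonical exonic bases 27.2% lie in exons on the other strand.

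The HOXA cluster thus held changes in both directions. RefSeq promoter windows were at hand for 20 of the 39 HOX genes, and of the 7 changed genes for HOXA4 and HOXA13 only, so the 250 bases before the start of each are shown as an example of a downregulated and an upregulated member of the same cluster. They are written 5′ to 3′ on the minus strand, from chr7:27130758-27131007 for HOXA4 and chr7:27200092-27200341 for HOXA13 (GRCh38.p14), with the motif CCAAT or its reverse complement in capitals.
HOXA4: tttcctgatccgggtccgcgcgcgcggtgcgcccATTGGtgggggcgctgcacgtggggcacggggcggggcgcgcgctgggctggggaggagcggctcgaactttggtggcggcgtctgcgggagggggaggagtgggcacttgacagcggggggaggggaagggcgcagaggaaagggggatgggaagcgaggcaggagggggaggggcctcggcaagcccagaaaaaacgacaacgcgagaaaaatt
HOXA13: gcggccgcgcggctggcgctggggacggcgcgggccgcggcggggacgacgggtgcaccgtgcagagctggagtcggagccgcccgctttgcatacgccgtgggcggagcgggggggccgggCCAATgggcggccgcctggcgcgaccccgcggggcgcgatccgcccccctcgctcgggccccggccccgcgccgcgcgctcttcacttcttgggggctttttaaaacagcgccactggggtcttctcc
Both windows are rich in CpG, with 26 CpG dinucleotides and 70.0% G or C for HOXA4 and 40 and 78.0% for HOXA13. Among all 35116 windows of this length these CpG counts stand at percentiles 80.4 and 97.8. Each window holds 1 CCAAT on either strand, and neither holds AGGTCA (a nuclear receptor half-site), TGATNNAT (a motif of PBX and HOX dimers) or TATAAA. Over the 26 distinct windows of HOX genes, 65.4% held CCAAT, beside 32.0% of all windows. AGGTCA was in 0.0% of the HOX windows and 12.1% of all, TGATNNAT in 11.5% and 6.5%, and TATAAA in 19.2% and 10.7%. These shares are a description of the letters, and 7 of the 26 windows belong to HOXA3.

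The other 7 tested HOXA genes were not called. HOXA10, a gene of the uterus and kidney stroma, was at 127.8, 103.9 and 110.3 in Caki2+Vector and 128.9, 106.7 and 124.2 in Caki2+PBRM1, with a log2 fold change of 0.07 with a 95% interval from -0.17 to 0.31. HOXA2, which acts in hindbrain patterning, had a log2 fold change of -0.05 (-0.45 to 0.35). HOXA9, known from leukemia, ranged from 21.8 to 34.8 in Caki2+Vector and from 23.8 to 31.1 in Caki2+PBRM1. For HOXA6 and HOXA7, at normalized counts of 4.3 to 21.6, the intervals were wider, from -0.88 to 0.69 and from -0.50 to 0.68.

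In the HOXB cluster 3 of 8 tested genes were upregulated and none was downregulated. HOXB2 (chr17:46618256-46622471, minus strand), an anterior gene of the hindbrain, was at 210.2, 239.0 and 239.7 in Caki2+Vector and at 291.4, 278.2 and 287.0 in Caki2+PBRM1. Its Caki2+PBRM1 samples lay close together and all above the controls. The mean rose from 230 ± 16.9 to 286 ± 6.71, a log2 fold change of 0.32 with an SE of 0.081 and an adjusted p of 0.00336 in limma.

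HOXB9, 76.0 kb away at chr17:46698518-46703720, lies within the annotated span of HOXB7 and acts in thoracic skeletal and mammary patterning. Its counts were 18.0, 13.2 and 22.8 in Caki2+Vector and 43.3, 25.8 and 36.1 in Caki2+PBRM1. The groups did not overlap, but the highest control and the lowest Caki2+PBRM1 sample were close. The mean rose from 18.0 ± 4.77 to 35.1 ± 8.82, a log2 fold change of 0.93 with an SE of 0.245 and an adjusted p of 0.00451 in limma. Without Caki2+PBRM1 A the log2 fold change was 0.76 and the call was lost (adjusted p = 0.0563 in limma).

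HOXB13, known as a prostate lineage factor, lies apart from the rest of its cluster, 98.4 kb from HOXB9 at chr17:46802125-46806112. It was at 42.6, 41.6 and 39.6 in Caki2+Vector and at 55.2, 70.2 and 59.6 in Caki2+PBRM1. The controls were nearly alike and the Caki2+PBRM1 samples were all higher and more spread. The mean rose from 41.2 ± 1.55 to 61.7 ± 7.70, a log2 fold change of 0.56 with an SE of 0.163 and an adjusted p of 0.00912 in limma. This call was lost in DESeq2 on the recovered reads (adjusted p = 0.0648) and in limma without Caki2+PBRM1 B (log2 fold change 0.47, adjusted p = 0.0765).

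HOXB3, next to HOXB2, was at 92.8, 97.3 and 97.1 in Caki2+Vector and at 110.5, 114.7 and 119.2 in Caki2+PBRM1. Its groups did not overlap, but the log2 fold change of 0.26 did not pass the threshold (adjusted p = 0.0897 in limma). HOXB7, the HOX gene with the highest level per kb, was at 275.5, 304.2 and 315.2 in Caki2+Vector and at 312.0, 309.3 and 283.7 in Caki2+PBRM1. The groups of HOXB7 overlapped, with a log2 fold change of 0.02 and a 95% interval from -0.14 to 0.17. HOXB4, a gene of blood stem cell growth, and HOXB5 had log2 fold changes of 0.02 (-0.33 to 0.36) and -0.02 (-0.46 to 0.43), and HOXB6 one of 0.24 (-0.09 to 0.57).

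In the HOXC cluster 1 of 5 tested genes was called. HOXC13 (chr12:54332615-54340328, plus strand), a regulator of hair and nail keratin genes, was at 15.1, 5.7 and 4.8 in Caki2+Vector and at 29.2, 20.4 and 18.5 in Caki2+PBRM1, from 16, 6 and 4 reads and 27, 23 and 22 reads. Caki2+Vector A was well above the other controls, yet below every Caki2+PBRM1 sample. The mean rose from 8.54 ± 5.74 to 22.7 ± 5.74, a log2 fold change of 1.45 with an SE of 0.345 and an adjusted p of 0.00204 in limma. Only 1 control reached a normalized count of 10, so HOXC13 passed the filter through the Caki2+PBRM1 samples, and with no filter its adjusted p in limma was 7.20e-04. HOXC6, a gene of thoracic patterning, was at 47.3, 55.7 and 44.3 in Caki2+Vector and at 69.3, 59.6 and 62.1 in Caki2+PBRM1. Its groups did not overlap and its log2 fold change of 0.37 missed the threshold (adjusted p = 0.0757 in limma).

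HOXC10, the HOXC gene with the highest level per kb, was at 220.6, 172.9 and 237.3 in Caki2+Vector and at 196.1, 212.4 and 221.6 in Caki2+PBRM1. These groups overlapped, with a log2 fold change of 0.01 and a 95% interval from -0.20 to 0.22. HOXC4 and HOXC9 had log2 fold changes of 0.32 (-0.17 to 0.80) and -0.21 (-0.56 to 0.15). Near silent HOXC5 had 1, 1 and 1 reads in Caki2+Vector and 4, 4 and 6 in Caki2+PBRM1. It was called when no filter was applied (adjusted p = 0.0224 in limma), but 67.3% of its canonical exonic bases are shared with other genes on its strand, and HOXC4 spans its locus. HOXC8 was at 7.6, 7.6 and 4.8 in Caki2+Vector and at 18.4, 6.2 and 10.9 in Caki2+PBRM1, which overlap.

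In the HOXD cluster none of 5 tested genes was called. HOXD9 was at 85.2, 106.8 and 112.7 in Caki2+Vector and at 102.9, 90.7 and 104.1 in Caki2+PBRM1, with a log2 fold change of -0.03 with a 95% interval from -0.28 to 0.23. HOXD8 was at 86.1, 78.4 and 76.7 and at 76.9, 79.1 and 77.2, with a log2 fold change of -0.05 (-0.31 to 0.22). For HOXD4, HOXD10 and HOXD11, with normalized counts of 7.6 to 21.7, the intervals ran from -0.41 to 0.69, from -0.92 to 0.39 and from -0.85 to 0.47. HOXD12 and HOXD13 had 3 and 2 reads over the 6 samples. HOXD13, the paralog of the 3 upregulated group 13 genes, had values of 0, 0.9 and 1.2 in Caki2+Vector and 0 in all 3 Caki2+PBRM1 samples.

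**Figure D3:**
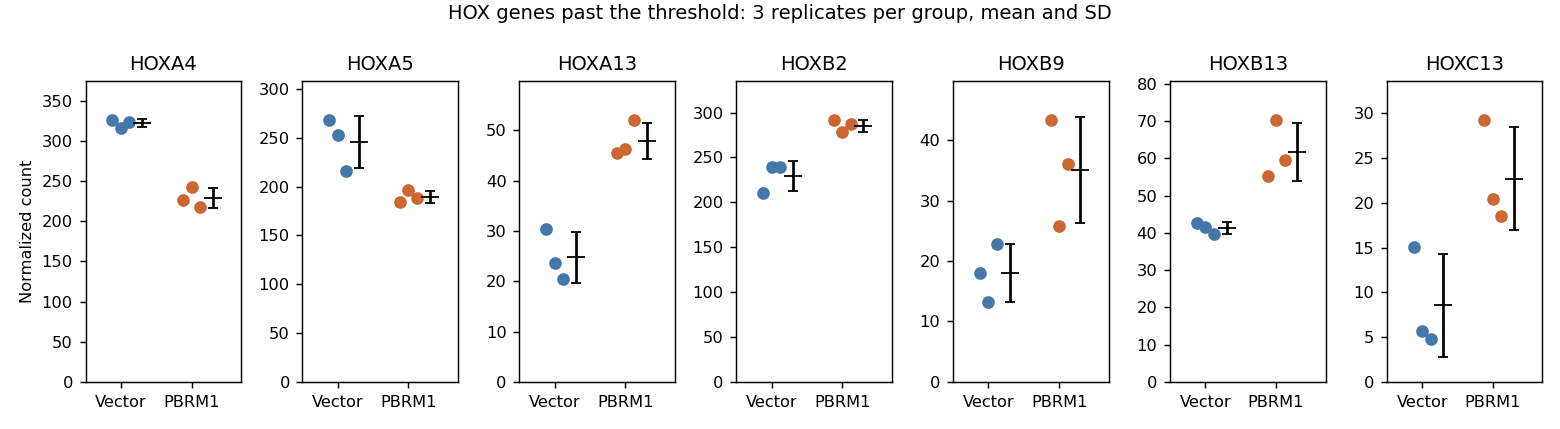
Normalized counts of the 7 HOX genes past the threshold in each of the 3 Caki2+Vector (blue) and 3 Caki2+PBRM1 (orange) samples, each panel on its own linear axis from 0, with the mean as a line and the SD as bars. HOXA4 and HOXA5 are lower in all 3 Caki2+PBRM1 samples, and HOXA13, HOXB2, HOXB9, HOXB13 and HOXC13 are higher in all 3, with the widest spread for HOXB9 and HOXC13.

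Over all 21 tested HOX genes that were not called, log2 fold changes ran from -0.27 to 0.37 and every 95% interval lay within 1 on either side of 0. Of the 28 tested genes, 9 had groups without overlap, 7 higher and 2 lower in Caki2+PBRM1, and 41.7% of all genes tested had none either, 22.1% higher and 19.6% lower. With 3 samples against 3 an exact permutation test (two-sided) cannot go below p = 0.1, and each of those 9 genes gave this smallest value.

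By position, called genes were 2 of 9 tested in paralog groups 1 to 4 (HOXA4 lower, HOXB2 higher), 2 of 12 in groups 5 to 9 (HOXA5 lower, HOXB9 higher) and 3 of 7 in groups 10 to 13, all higher. These shares were 22.2%, 16.7% and 42.9%, beside 29.2% over all genes tested. The 3 posterior genes were HOXA13, HOXB13 and HOXC13, that is, every tested member of paralog group 13, with log2 fold changes of 0.56 to 1.45. This grouping was picked out after the values were seen and is given as a description, and it includes HOXC13, which passed the filter through the Caki2+PBRM1 samples, and HOXB13, which DESeq2 did not call. All 3 were lowly expressed, at 13.6 ± 0.51 per kb for HOXB13, 4.94 ± 1.01 for HOXA13 and 3.62 ± 2.44 for HOXC13 in Caki2+Vector, compared with 191 ± 2.85 for HOXA4. The 4 tested genes of groups 10 and 11 did not pass the threshold, and HOXA10 and HOXC10 differed by less than the spread between replicates.

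**Figure D4:**
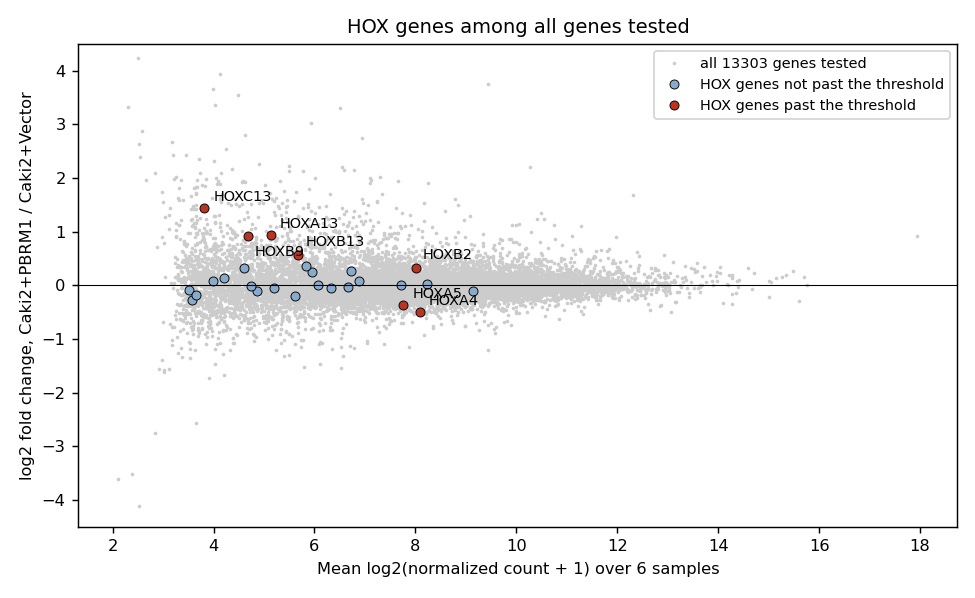
Log2 fold change, Caki2+PBRM1 over Caki2+Vector, against the mean log2(normalized count + 1) of the 6 samples, for all 13303 genes tested (grey), HOX genes not past the threshold (blue) and the 7 past it (red, named). HOXA13, HOXB9, HOXB13 and HOXC13 lie to the left with log2 fold changes of 0.56 to 1.45, while HOXA4, HOXA5 and HOXB2 lie near a mean of 8 with smaller changes.

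Summed over each cluster, HOXA transcripts were at 1431.4, 1485.2 and 1500.6 in Caki2+Vector and at 1312.8, 1314.6 and 1309.3 in Caki2+PBRM1, which is 50.8% and 45.4% of all HOX counts. HOXB sums were 778.2, 848.4 and 897.7 in Caki2+Vector and 999.8, 949.3 and 944.2 in Caki2+PBRM1, or 29.0% and 33.3%. Neither sum overlapped between groups, and the sums are carried mainly by HOXA3, HOXA4, HOXA5, HOXB2 and HOXB7. HOXC sums were 348 ± 29.9 and 385 ± 12.7, and HOXD sums 239 ± 18.0 and 231 ± 1.40 (SD, n = 3). The total over all HOX genes was 2902 ± 122 in Caki2+Vector and 2893 ± 27.4 in Caki2+PBRM1, a difference smaller than the spread between the controls.

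HOX proteins bind DNA with cofactors of the TALE homeobox class, the PBX, MEIS and PKNOX proteins. Of the 8 cofactors tested, 1 was upregulated and 1 downregulated, which is 25.0% beside 29.2% over all genes tested, and their median log2 fold change was -0.02. MEIS2, a partner of PBX and HOX proteins, was at 377.7, 360.0 and 381.1 in Caki2+Vector and at 252.4, 280.9 and 261.9 in Caki2+PBRM1, with a log2 fold change of -0.49 (adjusted p = 5.40e-06 in limma). All 3 of its Caki2+PBRM1 samples lay below all 3 controls. MEIS1, the leukemia partner of HOXA9, had a log2 fold change of -0.10 with a 95% interval from -0.47 to 0.27.

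Of 22 noncoding transcripts of the HOX clusters, 19 had a read, 8 were tested and 0 were called by limma, edgeR or DESeq2, with 1 at an unadjusted p under 0.05 in limma. That one was HOTAIRM1, transcribed from the anterior end of HOXA, which was at 343.6, 339.2 and 359.6 in Caki2+Vector and at 325.0, 303.1 and 295.4 in Caki2+PBRM1. Its groups did not overlap, and its log2 fold change of -0.17 missed the threshold (adjusted p = 0.0678 in limma). HOTAIR, the HOXC transcript known for binding Polycomb complexes, had 0 reads in Caki2+Vector and 2, 0 and 1 in Caki2+PBRM1. Of 11 tested genes flanking the clusters, 1 rose and 2 fell, which is 27.3% and again near the 29.2% over all genes tested. KIAA1715, beside HOXD, rose from 440 ± 42.8 to 586 ± 29.6 (log2 fold change 0.42, adjusted p = 2.14e-05 in limma) while no HOXD gene was called. SNX10 and HIBADH, on either side of HOXA, fell by 0.16 and 0.15 on the log2 scale (adjusted p = 0.0346 and 0.0282 in limma). The groups of both genes overlapped and DESeq2 called neither, and without Caki2+PBRM1 C only 1 of the 3 calls was left.

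MLL/COMPASS and its partners, which keep HOX genes active, had 3 upregulated genes out of 13 tested and no downregulated one, which is 23.1% beside 29.2% over all genes tested. These were KDM6B, an H3K27 demethylase that removes the Polycomb mark (log2 fold change 0.37, adjusted p = 0.0455 in limma), and the methyltransferases KMT2C (0.18, adjusted p = 0.0154) and KMT2D (0.15, adjusted p = 0.0143). Leaving out Caki2+PBRM1 C ended all 3 calls, leaving out Caki2+PBRM1 B left 1, and DESeq2 called KMT2D alone. KMT2A, the methyltransferase best known for HOX genes, was at 1917 ± 51.5 and 1837 ± 63.0 with a log2 fold change of -0.06 (adjusted p = 0.292 in limma). CDX1, CDX2 and CDX4, activators of posterior HOX genes in the embryo, had no read in any sample.

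Retinoic acid is a classical inducer of anterior HOX genes, and of 12 retinoid response genes tested, 4 were upregulated and 3 downregulated, a share of 58.3% beside 29.2% over all genes tested. CYP26B1, which breaks retinoic acid down, rose from 307 ± 15.7 to 526 ± 25.7 (log2 fold change 0.78, adjusted p = 2.95e-10 in limma). TGM2, ALDH1A1 and RXRA rose by smaller amounts, with log2 fold changes of 0.38, 0.26 and 0.18 (adjusted p = 3.81e-09, 1.55e-05 and 0.0119 in limma). ALDH1A3, which like the upregulated ALDH1A1 makes retinoic acid, fell by 0.51 and the receptor gene RARG by 0.20 (adjusted p = 3.60e-09 and 0.0456 in limma). DESeq2 did not call RXRA (adjusted p = 0.0553) or RARG (adjusted p = 0.159). The receptor gene RARA was at 206 ± 15.2 and 205 ± 14.2 and was not called (adjusted p = 0.982 in limma). Members that make and members that break down retinoic acid are in the same list, so its counts carry no direction.

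**Figure D5:**
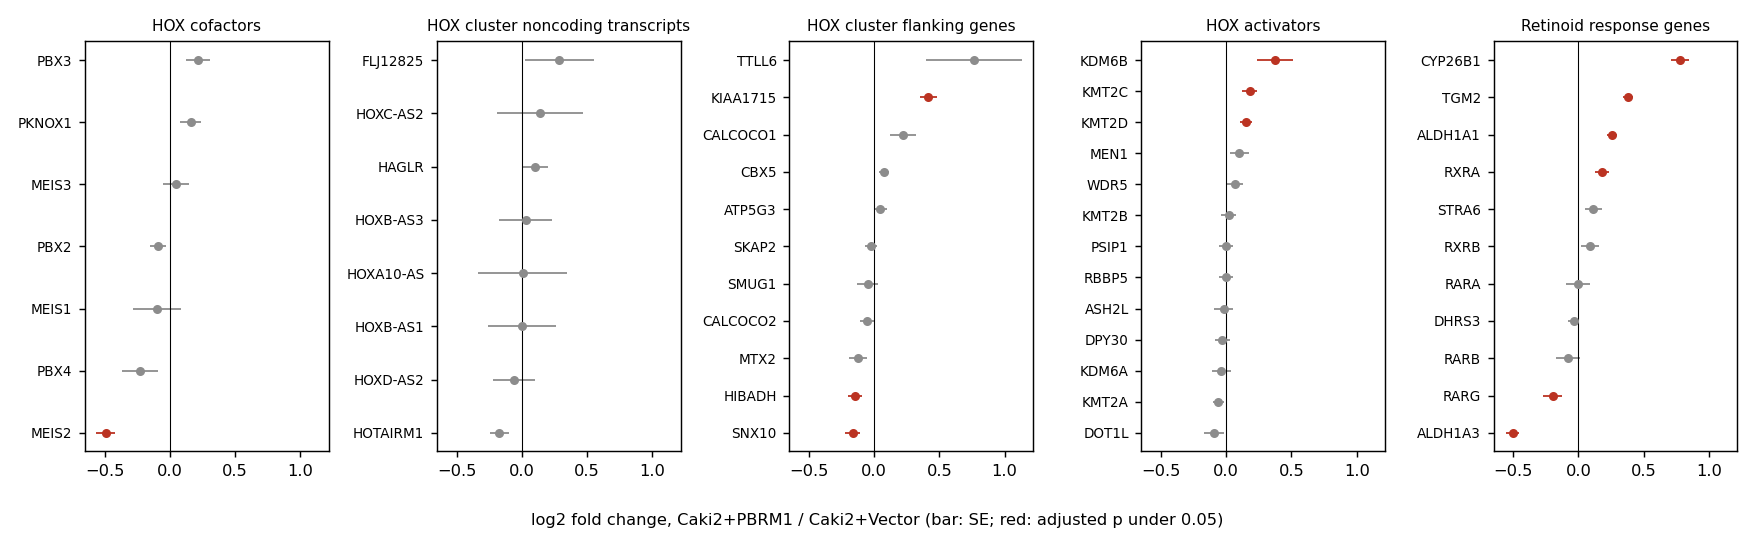
Log2 fold change, Caki2+PBRM1 over Caki2+Vector, with its SE as a bar, for tested genes of 5 lists linked to the HOX clusters, in red where the adjusted p was under 0.05. MEIS2 is the lowest cofactor plotted, no noncoding transcript is red, and CYP26B1 and ALDH1A3 are at the ends of the retinoid genes plotted.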

How the data were processed

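RNA was enriched for poly(A), sequenced in pairs, and reads left after trimming and removal of rRNA were aligned by the authors to hg19 with STAR and counted on 25369 genes of a UCSC annotation with htseq-count. The deposited signal is the normalized count, that is, the count divided by a DESeq2 size factor per sample (0.834 to 1.19). In the deposited files 100% of values lay within 0.1 of a whole read, so reads were recovered from the steps. Strand setting, annotation release and tool versions were not given in the sources used here. The exon model in that annotation may differ from the GENCODE v44lift37 one used here for coordinates and lengths.

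The 13303 genes that reached a normalized count of 10 in 3 or more samples were fitted on log2(normalized count + 1) with limma 3.58.1 in R 4.3.3 (trend, robust), Caki2+PBRM1 against Caki2+Vector, without covariates, with Benjamini-Hochberg adjustment over all genes tested and a threshold of 0.05. A pseudocount can understate the change of low genes. For HOXC13, however, the limma log2 fold change of 1.45 was above those of edgeR (1.32) and DESeq2 (1.37). The edgeR quasi-likelihood test (4.0.16) and DESeq2 (1.42.0) on the recovered reads were alternatives and called 4030 and 2553 genes, where limma called 3886. Other alternatives were 2 other filters, other pseudocounts, TMM, voom, a replicate block and leaving out each sample. Scripts were tested on simulated data. All HOX symbols are counted, and called members are given with all 6 values. A few results are not reported here. Of the other lists the called genes are named, with MEIS1, HOTAIR, KMT2A and RARA whatever their result, and other names were chosen after values were seen. The members and lists were chosen with earlier results of these data known. The samples are 3 per group by their labels. If they are not separate cultures, p-values measure a spread that may be technical.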

Additional observations from a re-analysis of the deposited data

How the results depend on the processing

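Of 444 alternative results for single HOX genes, 440 kept their side of the threshold, 3 lost the call and 1 gained it. Most of the 444 are of genes not called in the main fit. Alternatives in which a gene was not tested, as for HOXC13, are left out of the 444. For each gene the alternative results include the main fit read at an adjusted p under 0.01, which is not a refit and cannot turn a sign. In 24 refits, of 12 genes that were not called, the sign of the fold change turned, and 0 of the called genes turned. The losses were HOXB9 without Caki2+PBRM1 A (0.76, adjusted p = 0.0563) and HOXB13 in DESeq2 (0.58, adjusted p = 0.0648) and without Caki2+PBRM1 B (0.47, adjusted p = 0.0765). HOXA3 was called without Caki2+Vector A (-0.19, adjusted p = 0.00652 in limma). Across the alternatives 4 to 6 HOX genes were higher and 2 to 3 lower, and the median log2 fold change was -0.01 to 0.08. Of HOXC genes, 2 were higher with no filter, since HOXC5 entered, and 0 with at least 10 in every sample, where HOXC13 was not tested. Of the flanking genes 1 was called by DESeq2, 1 at an adjusted p under 0.01 and 1 to 3 with a sample left out, the lowest without Caki2+PBRM1 C. Of the activators 1 was called by DESeq2, 0 at an adjusted p under 0.01 and 0 to 3 with a sample left out, with 0 without Caki2+PBRM1 C and 1 without Caki2+PBRM1 B. Where no value above shows the cause, the cause was not tested. When a sample was left out, the spread was pooled over the rest.

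Samples with the same letter did not deviate together (correlations of -0.01 to 0.01 across genes), and 3 of 6 samples correlated best with their own letter, so the letters were not taken as pairs. With the replicate block 5 HOX genes were higher and 2 lower, and no count of a list changed. At this depth 9 HOX genes stayed below the filter and were tested only in the fit with no filter, and for genes near a normalized count of 10 the intervals spanned up to 0.92 below 0 on the log2 scale.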
